A study of Triticum aestivum with 12 samples.

Results

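A group of 5 genes near the ends of the short arms of wheat chromosomes 2A and 2B is described, out of 124118 genes in the count table. They were chosen by their low level in the transgenic lines against wild type in these same libraries, so that difference is described by its values, and a count of the genes that pass in it only restates the choice. By the Pfam domains of the table, 3 of them encode proteins of the chalcone and stilbene synthase type, 1 an alpha/beta hydrolase and 1 a cytochrome P450. Messenger RNA was sequenced from the upper part of untreated wheat (Triticum aestivum) seedlings, without roots, at an age of 2 months. The lines C20, C22 and C40 (also written 40C in the labels) overexpress TaSIP1 in a form marked ΔC, and the wild type (WT) carries no transgene by its label. Each of the 4 groups had 3 libraries. Neither the cultivar nor the promoter of the transgene is named in the labels, and TaSIP1 was not matched to an identifier of the table, so its level was not analysed here. The labels do not say that replicates came from separate plants, so errors and p-values reflect only how far these libraries differ, in part perhaps for technical reasons.

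Enzymes of the chalcone and stilbene synthase type are polyketide synthases. They join malonyl-CoA units to a starter acyl-CoA, and the best known of them, chalcone synthase, opens flavonoid synthesis. In the grasses diverged relatives act on long acyl chains. Near the ends of the short arms of wheat 2B and 2D and of barley 2H, gene clusters with a polyketide synthase, a hydrolase and a cytochrome P450 are known to make the beta-diketones of the bluish leaf and stem wax. The count table does not say which of its genes belong to those clusters, and no such role is assigned here to the 5 genes.

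Library totals ranged from 25622422 to 38454215 counts in the lines and from 37757184 to 43532179 counts in WT. The leaf origin was checked on 2 lists. The 18 Rubisco small subunit genes summed to 9607 to 48281 CPM (counts scaled to a common library total, corrected by TMM) in the lines and 45856 to 63605 CPM in WT, and the 120 chlorophyll a/b-binding genes to 24850 to 127349 CPM in the lines and 81912 to 123261 CPM in WT. The 360 core histone genes, a readout of dividing cells, summed to 5018 to 12601 CPM in 7 line libraries, against 1145 to 1302 CPM in WT. The other 2 line libraries were near WT: C20 replicate 3 had a sum of 1490 CPM, and for C40 replicate 1 it was 1157 CPM. Between 51 and 112 of the histone genes had 0 counts in a line library, and between 152 and 184 in a WT library.

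On 2A lie 4 of the genes. TraesCS2A01G021800, the alpha/beta hydrolase, spans 2A from 10485453 to 10486796 on the minus strand. TraesCS2A01G021900, a polyketide synthase, follows after 20.6 kb, from 10507367 to 10508715 on the plus strand. TraesCS2A01G022800, the cytochrome P450, lies 515 kb further on, from 11023897 to 11025605 on the minus strand. TraesCS2A01G035300, a second polyketide synthase, is another 4369 kb away, from 15394879 to 15396163 on the plus strand, so it is not a close neighbour of the other three. TraesCS2B01G019200, a polyketide synthase, spans 2B from 8941896 to 8943174 on the plus strand. The count table supplies these positions and names no genome build.

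Per length, the 2B polyketide synthase was by far the most abundant of the 5 in WT. In the FPKM values of the authors (counts per length and library size, rescaled between libraries) TraesCS2B01G019200 averaged 36.1 ± 2.42 FPKM in WT (SD, n = 3). The 4 genes on 2A averaged 6.07 ± 6.69 FPKM for TraesCS2A01G035300, 4.91 ± 1.24 for TraesCS2A01G022800, 4.04 ± 1.49 for TraesCS2A01G021900 and 2.42 ± 1.08 for TraesCS2A01G021800. The libraries of neighbours in this order overlapped on 2A, and those of the 2B gene lay above all of them. In the lines the order by length was led by the same 2B gene, with 4.76 ± 9.44 FPKM (n = 9), against 0.0465 to 0.236 FPKM for the others.

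The hydrolase gene TraesCS2A01G021800 was read in a single line library. It had 0.694, 0 and 0 CPM in C20 replicates 1, 2 and 3 and 0 CPM in all libraries of C22 and C40, against 4.73, 1.79 and 3.33 CPM in those of WT. The 0.694 CPM rest on 19 counts, and the lines did not overlap WT. With 0 counts in the group, C22 was at least 117-fold and C40 at least 106-fold lower than WT, taking a floor of 3 counts over the group. C20 was 14.7-fold lower (95% interval 9.27 to 24.8). Such intervals are exact for counting and cover counting error only. The floors set the line group to 3 counts and leave out the counting error of WT, so they are approximate. In tissue samples of this kind, fewer cells that use a gene and less RNA per cell cannot be told apart.

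The polyketide synthase gene next to it, TraesCS2A01G021900, was also read in C20 replicate 1 and hardly elsewhere in the lines. It had 0.475, 0 and 0 CPM in C20, 0 CPM throughout C22, and 0, 0.0327 and 0 CPM in C40, against 5.5, 2.79 and 6.17 CPM in WT. The single C40 value is 1 count, and the C20 value 13 counts. C22 was at least 169-fold lower than WT. The ratio was 459 for C40 (95% interval 81.9 to 18200) and 30.9 for C20 (17.9 to 58.5). In WT both genes were lowest in replicate 2.

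The cytochrome P450 gene TraesCS2A01G022800 was still read in every line library. Enzymes of this family add oxygen to many small molecules and lipids. It had 0.584, 0.0295 and 0.405 CPM in C20, 0.257, 0.347 and 0.331 CPM in C22, and 0.0308, 0.0654 and 0.0310 CPM in C40, against 6.65, 10.1 and 6.86 CPM in WT. C40 and C20 replicate 2 were the low libraries, with 1 or 2 counts each, and no line library came near WT. The fitted log2 fold change was -4.56 ± 0.64 in C20, -4.64 ± 0.63 in C22 and -7.42 ± 0.78 in C40 (SE of the edgeR fit), and -5.54 ± 0.44 for the mean of the lines.

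The polyketide synthase gene further along 2A, TraesCS2A01G035300, varied most within WT. It had 1.94, 0 and 0.540 CPM in C20, 0, 0 and 0.0710 CPM in C22 and 0, 0.0327 and 0 CPM in C40, against 3.35, 16.4 and 1.95 CPM in WT. C20 replicate 1 lay just below WT replicate 3, so the gap between the groups was far smaller than the spread within WT. The ratio of WT to the line was 9.23 for C20 (95% interval 7.15 to 12.1), 252 for C22 (85.8 to 1220) on 3 counts, and 685 for C40 (123 to 27100) on 1 count. WT replicate 2 was the highest library for this gene and for the P450, and the lowest within WT for the hydrolase and its neighbour.

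The 2B polyketide synthase gene TraesCS2B01G019200 was uniform in WT and in C22 and uneven in C20. It had 3.18, 6.76 and 35.7 CPM in C20, 0.675, 0.663 and 0.544 CPM in C22 and 2.34, 1.01 and 0.683 CPM in C40, against 42.7, 46.4 and 41.1 CPM in WT. C20 replicate 3 lay close below WT, and all 3 libraries of C22 lay below every other library. The fitted log2 fold change was -1.52 ± 0.71 in C20, -6.11 ± 0.89 in C22 and -5.01 ± 0.83 in C40, and -4.21 ± 0.53 for the mean of the lines.

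**Figure D1:**
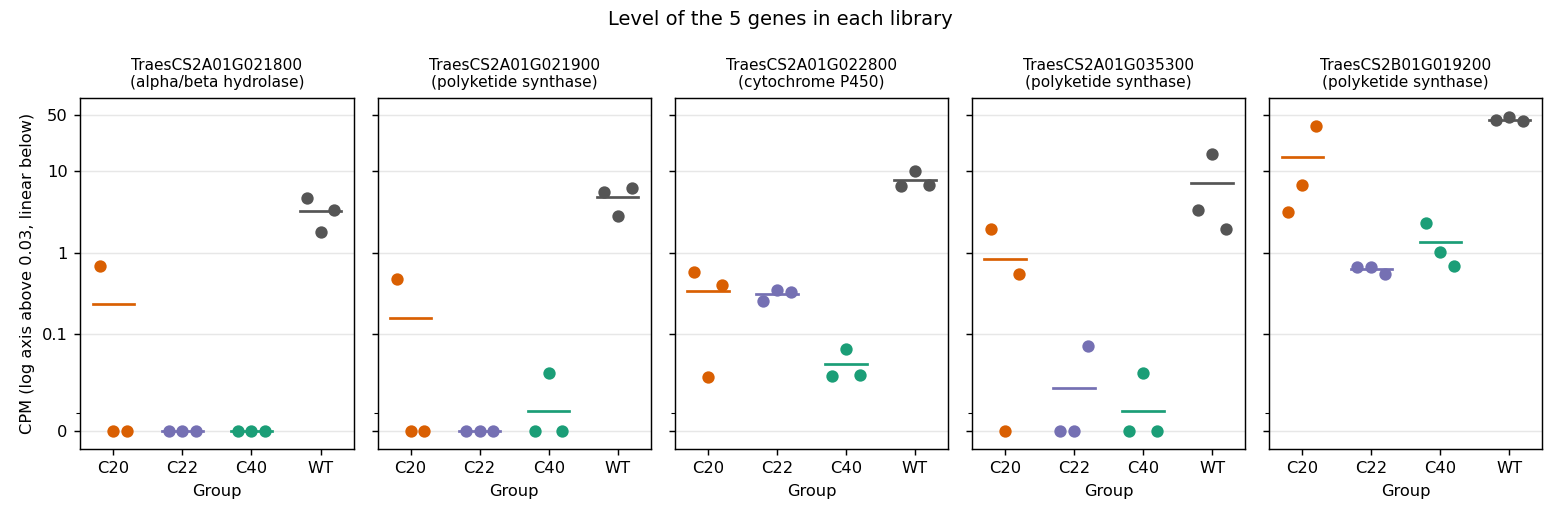
CPM of each of the 5 genes in every library (points) with the group mean (bars), 3 libraries a group; the axis is logarithmic above 0.03 CPM and linear below. All line libraries lie below WT for each gene, the 2A hydrolase and its neighbour are at 0 CPM in C22, and C20 replicate 3 reaches 35.7 CPM of the 2B gene, while the lowest WT library has 41.1 CPM.

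All 5 genes had every line library below every WT library, a pattern that 8.13% of the 75788 tested genes showed. All 5 passed the test for a lower mean of the lines, as did 11.7% of tested genes. Line by line, 1 of the 5, the P450, passed in C20 (1.02% of genes lower), and 5 of 5 in C22 (8.56%) and in C40 (8.80%). These counts restate the choice of the genes and carry no weight of their own. In C20 the count was 0 without WT replicate 2, 2 without C20 replicate 1, C20 replicate 2 or C40 replicate 1, and 3 without C20 replicate 3. It was 3 in C22 without C22 replicate 2, and 3 in C40 without C40 replicate 3. In C40 replicate 1 the 5 genes had 0, 0, 0.0308, 0 and 2.34 CPM in the order above. Its histone sum lay inside the WT range and its Rubisco sum, 21759 CPM, below it. In C20 replicate 3 they had 0, 0, 0.405, 0.540 and 35.7 CPM. Its histone sum, 1490 CPM, lay just above the WT range and its Rubisco sum, 48281 CPM, inside it. Whether the levels follow either sum was not tested.

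Whether the lines differed among themselves did not enter the choice and was tested. Of the 5 genes 1 differed between the lines by edgeR's quasi-likelihood F test with Benjamini-Hochberg adjustment, as did 2.49% of all genes. This was the 2B gene (adjusted p = 0.0230). The 4 genes on 2A did not pass, with adjusted p from 0.118 to 0.278 in the same edgeR test. The 2B call was lost without C22 replicate 1, 2 or 3 (adjusted p = 0.0708, 0.0677 and 0.0713 in the edgeR test) and with limma on log2(FPKM + 1) (adjusted p = 0.0553). Without C20 replicate 2 the P450 (0.00528) and TraesCS2A01G035300 (0.0225) passed as well. The number of all genes that passed changed too, from 1890 in the main fit. It was 293, 409 and 408 without C22 replicates 1, 2 and 3, 7390 without C20 replicate 2 and 3003 with that limma fit.

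Between pairs of lines, the 2B gene was lower in C22 than in C20, by a log2 difference of -4.59 ± 0.84 (SE, edgeR adjusted p = 0.0400), the only one of the 5 to pass in that pair, where 1.07% of genes passed. That call did not hold without C20 replicate 1 (adjusted p = 0.0664 in edgeR), C22 replicates 1, 2 and 3 (0.145, 0.136 and 0.138), C40 replicate 2 (0.0524) or WT replicates 1, 2 and 3 (0.0728, 0.0721 and 0.0622), nor with limma on log2(FPKM + 1) (0.0549). In C40 against C20 the 2B gene had a log2 difference of -3.49 ± 0.78 (edgeR adjusted p = 0.0536), which passed without C20 replicate 1 (0.0447) or C20 replicate 2 (0.0254). In C40 against C22 it was 1.10 ± 0.79 (edgeR adjusted p = 0.781). Of the 5 genes 0 passed in these 2 pairs by edgeR (1.66% and 0.425% of genes passed), with 4 and 1 at an unadjusted p under 0.05. DESeq2 called 2 and 0 of them, and limma on FPKM 0 and 0.

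**Figure D2:**
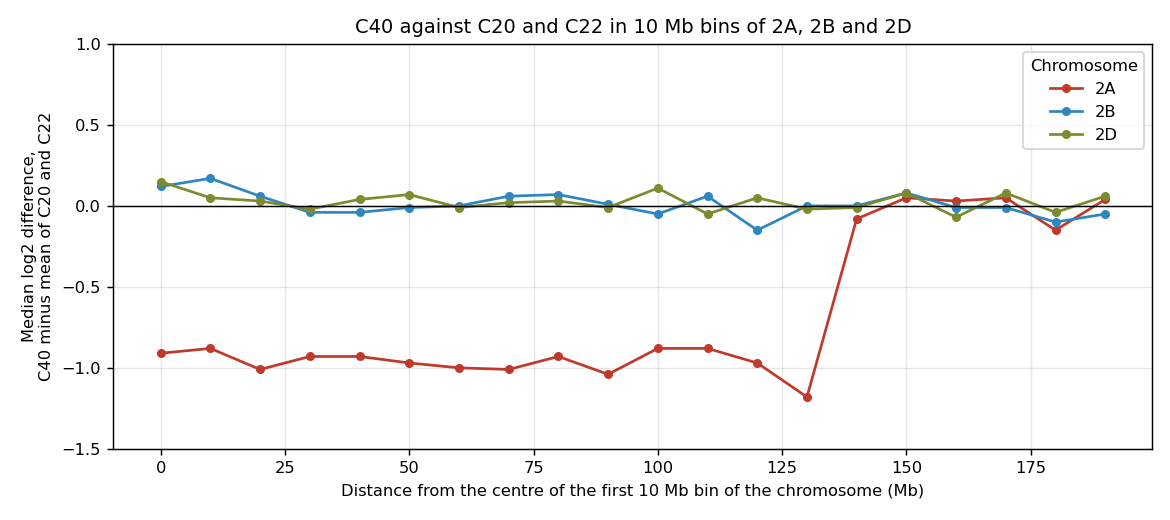
Median log2 difference of C40 against the mean of C20 and C22 over the tested genes of each 10 Mb bin, along the start of chromosomes 2A, 2B and 2D. On 2A the median lies between -1.18 and -0.88 in each of the first 14 bins and near 0 after them, while 2B and 2D stay between -0.15 and 0.17 over the same bins.

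The 4 genes on 2A lie in a long stretch that was low in C40 as a whole. In each of the first 14 bins of 10 Mb on 2A, the median log2 difference of C40 against the mean of C20 and C22 lay between -1.18 and -0.88, against -0.15 to 0.17 on 2B and -0.05 to 0.15 on 2D. This stretch was known from earlier results of these data. In the bin that holds the 4 genes, from 10 to 20 Mb, the median was -0.88 and 24 of 161 tested genes were lower in C40 by edgeR, 14.9% against 0.429% of all genes. The count moved with the libraries used, as did the number of all genes lower in C40, which was 325. Leaving out C20 replicate 1 gave 12 and C20 replicate 2 gave 47. Leaving out replicates 1, 2 or 3 gave 4, 6 or 3 for C22 and 11, 2 or 2 for C40. Leaving out WT replicate 1 or 2 gave 9 or 12. Over all genes the number was 211 and 1061 without C20 replicates 1 and 2, 131 to 141 without a C22 library, 78 to 181 without a C40 library, and 195 and 203 without WT replicates 1 and 2.

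The 5 genes themselves were not shown to be lower in C40 than in the other lines. By the same contrast 0 of the 5 passed in edgeR, with 1 at an unadjusted p under 0.05. That was the P450, with a log2 difference of -2.82 ± 0.76 (edgeR adjusted p = 0.107). It passed by DESeq2 (adjusted p = 0.0225) and, in edgeR, without C20 replicate 2 (adjusted p = 0.00542), and limma on FPKM called 0 of the 5. The 2B gene, outside the stretch, had -1.19 ± 0.68 (adjusted p = 0.580 in edgeR). For the other 3 genes on 2A, at most 3 counts were left in each of C22 and C40, so a difference between those lines was not detectable at this depth. In the same bin the median log2 fold change of C40 against WT was -0.94, in C20 0 and in C22 -0.12. Against WT the P450 was at -7.42 in C40, and also at -4.56 in C20 and -4.64 in C22, where the bin as a whole was near 0.

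How the 5 genes moved together was described over the 12 libraries. Of their 10 pairs, Pearson's r of log2 CPM (prior count 2) over all libraries was 0.733 to 0.993, which includes the step between the lines and WT that chose them. After removing group means, the hydrolase and its neighbour TraesCS2A01G021900 had r = 0.971, and the P450 and TraesCS2A01G035300 had r = 0.907. The 2B gene had r = -0.639 with the hydrolase and -0.647 with TraesCS2A01G021900. It was high in C20 replicate 3, and they were read in C20 replicate 1. The values of a pair share library and depth, and most line values of the 2A genes are 0 to a few counts, so these r are descriptions only.

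In the mean of the lines, genes around the 5 went both ways, and by line their median was lowest in C40. Of 86 other genes starting within 500 kb of a member, 50 were tested, of which 17 fell, 7 rose and 26 did not pass in the mean of the lines against WT by edgeR. The share that rose was 14%, against 11.5% of all genes. The share that fell was 34%, against 11.7% of all genes, and the median log2 fold change was -0.53, against 0.07. Most of these neighbours lie on 2A, where 54 of the 161 tested genes from 10 to 20 Mb were lower in the lines, or 33.5%. Those 161 include the 4 members on 2A and nearly all the 2A neighbours, so the 2 shares are not separate measures. By line, 21 of the 50 neighbours fell in C40 and 11 in C22, where 8.80% and 8.56% of all genes fell. In C20, where 1.02% of all genes fell, 0 fell by edgeR, with 4 lower at an unadjusted p under 0.05. There DESeq2 called 3 and each limma fit 2. The median log2 fold change of the neighbours was -1.1 in C40, -0.26 in C22 and -0.03 in C20. Over all genes it was 0.11, 0.08 and 0.03. Without WT replicate 2 the count that fell in the mean of the lines was 10, while 3.86% of all genes fell. Of the 40 tested neighbours on 2A, 15 fell and 6 rose, and their median difference of C40 against C20 and C22 was -1.13. Of the 10 on 2B, 2 fell and 1 rose.

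At the first 2A site, the genes that fell furthest carry domains of the same kinds as the members. TraesCS2A01G021700, a polyketide synthase 20.4 kb before the hydrolase, fell by 4.48 ± 0.77 on the log2 scale (SE, edgeR adjusted p = 0.00482). It had 0 to 0.189 CPM in the lines, against 0.522, 0.502 and 2.88 CPM in WT. TraesCS2A01G022500, a cytochrome P450 113 kb before the P450 member and named after its values were seen, averaged 0.0724 ± 0.0727 CPM in the lines and 0.886 ± 0.107 CPM in WT. Between them, TraesCS2A01G022000, with a DNA glycosylase domain and also named after its values were seen, averaged 2.48 ± 1.37 CPM in the lines and 2.31 ± 0.58 CPM in WT, a log2 fold change of -0.06 (edgeR adjusted p = 0.908). Other genes there, named in the same way, differed. TraesCS2A01G022100 fell by 0.52 ± 0.15 (edgeR adjusted p = 0.0287), and TraesCS2A01G022200, at 1.26 ± 0.59, did not pass (edgeR adjusted p = 0.138). TraesCS2A01G022700, between the P450 gene TraesCS2A01G022500 and the P450 member, fell by 1.1 ± 0.35 (edgeR adjusted p = 0.042).

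The 2B member sits beside 2 further genes that fell. TraesCS2B01G019100 carries a wax ester synthase-like acyltransferase domain, found in enzymes that join fatty alcohols to acyl chains, and starts 175.5 kb before it. It had 2.70, 1.51 and 12.6 CPM in C20, 0.482, 0.316 and 0.118 CPM in C22 and 1.26, 0.393 and 0.0621 CPM in C40, against 14.8, 15.5 and 13.3 CPM in WT. A locus with no reference identifier or description, on 2B from 8819978 to 8825030 and 121.9 kb before the member, had 2.19, 2.51 and 17.8 CPM in C20, 0.9, 0.916 and 0.355 CPM in C22 and 1.05, 1.01 and 0.124 CPM in C40, against 24.2, 35.2 and 28.6 CPM in WT. As for the member, C20 replicate 3 was the highest line library of both. They fell by 3.88 ± 0.62 and 4.22 ± 0.59 on the log2 scale (edgeR adjusted p = 0.00378 and 0.00211).

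Around TraesCS2A01G035300 the neighbours went both ways. TraesCS2A01G035400, a D-isomer specific 2-hydroxyacid dehydrogenase gene 5.42 kb from it, averaged 9.91 CPM in C20, 4.51 CPM in C22 and 2.81 CPM in C40, against 13.4 CPM in WT, and fell by 1.42 ± 0.19 on the log2 scale (edgeR adjusted p = 0.00179). TraesCS2A01G037200, which has no description, fell by 1.28 ± 0.20 (edgeR adjusted p = 0.00343). The neighbour with the lowest fold change here was TraesCS2A01G036600, a cytochrome P450 238.7 kb after the member, named after its values were seen. It fell by 4.38 ± 0.89 (edgeR adjusted p = 0.00915). Its mean was 0.412 ± 0.984 CPM in the lines and 3.6 ± 2.22 CPM in WT, and the groups overlapped. Of the rises, 5 came from a run of genes 241.8 to 364 kb before TraesCS2A01G035300. TraesCS2A01G034000 averaged 7.37 ± 5.11 CPM in the lines and 0.0586 ± 0.0445 CPM in WT. TraesCS2A01G034100 had 0 counts in WT and 809 in the lines, which makes it at least 92.5-fold higher if the WT group is set to the floor of 3 counts, and TraesCS2A01G034200 rose by 5.93 ± 0.86 on the log2 scale (edgeR adjusted p = 0.00250). TraesCS2A01G034400, with a dirigent domain, and TraesCS2A01G034500 rose by 2.15 ± 0.58 and 3.21 ± 0.65 (edgeR adjusted p = 0.0252 and 0.00897), the first not without WT replicate 1, 2 or 3 (adjusted p = 0.1, 0.102 and 0.0533 in edgeR) and the second not without WT replicate 2 (0.0554).

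**Figure D3:**
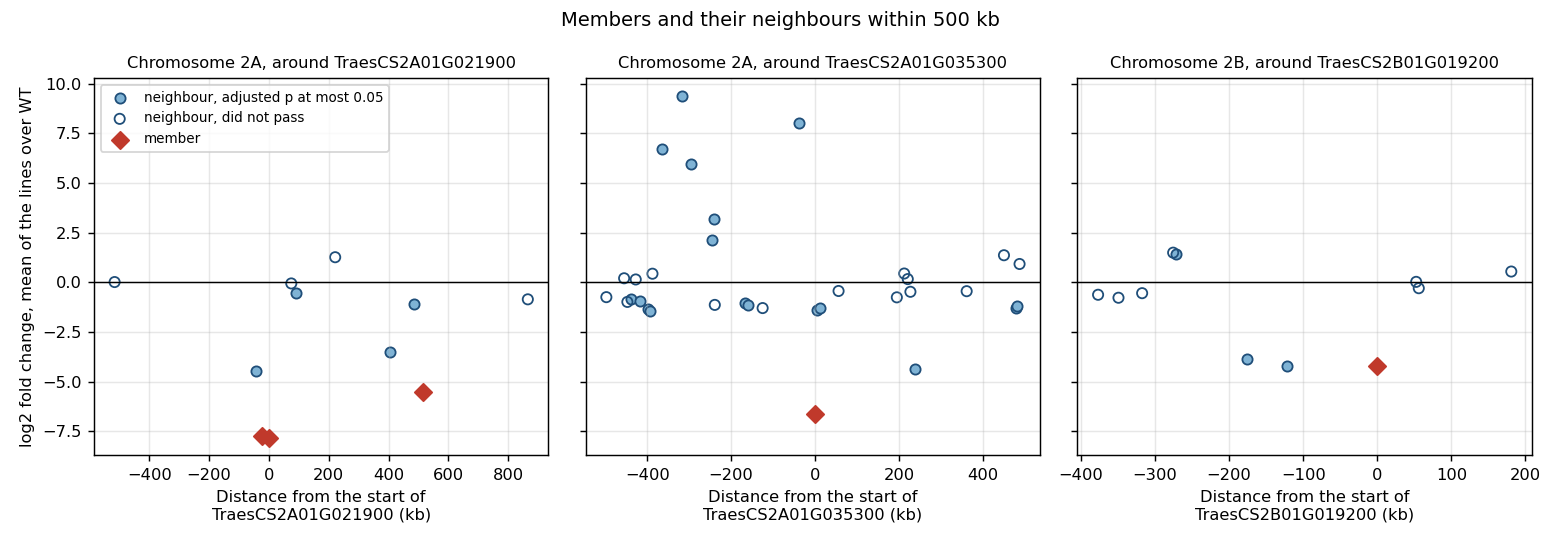
log2 fold change of the mean of the lines over WT for the members (diamonds) and their tested neighbours within 500 kb (circles, filled where adjusted p is at most 0.05), against distance from a member's start. Members and a few genes near them lie at -3.5 or below while others between them lie near 0; fitted values of genes with 0 counts in a group depend on the prior count.

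Genes with the domains of the members were then taken from the first 30 Mb of 2A, 2B and 2D, where their copies on the other subgenomes would lie. Of 194 such genes besides the members, 86 were tested, of which 34 fell, 9 rose and 43 did not pass by edgeR, 39.5% against 11.7% of all genes that fell, with a median log2 fold change of -0.59. Without WT replicates 1, 2 and 3 the count that fell was 21, 22 and 20, while 5.64%, 3.86% and 5.17% of all genes fell. By kind, 7 of 15 polyketide synthase genes and 27 of 68 cytochrome P450 genes fell. The 3 tested hydrolase genes did not pass, at -1.76 on 2B and 0.73 and 0.03 on 2D. By chromosome, 10 of 20 genes fell on 2A, 16 of 36 on 2B and 8 of 30 on 2D, and 1, 2 and 6 rose. Of all tested genes in the same 30 Mb, with the members and these genes included, 26.9% on 2A, 17% on 2B and 12.6% on 2D were lower in the lines. The first 30 Mb of 2A lie inside the stretch that was low in C40. The median log2 fold changes of its 10 Mb bins against WT were -0.76, -0.94 and -0.95 in C40. They were 0.02, 0 and 0.19 in C20 and 0.15, -0.12 and -0.02 in C22.

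The P450 genes that fell most clearly were low in all 9 line libraries. TraesCS2B01G031700 averaged 0.275 ± 0.168 CPM in the lines and 7.26 ± 1.62 CPM in WT and fell by 4.72 ± 0.43 on the log2 scale (edgeR adjusted p = 4.09e-04). TraesCS2D01G024100 averaged 0.0634 ± 0.0478 CPM in the lines and 1.93 ± 0.46 CPM in WT. TraesCS2B01G032500 averaged 0.155 ± 0.105 CPM in the lines and 1.71 ± 0.66 CPM in WT, and TraesCS2B01G030500 0.846 ± 0.666 CPM in the lines and 12.7 ± 2.04 CPM in WT. Other P450 genes near these ends rose. TraesCS2A01G053300 averaged 3.16 ± 1.58 CPM in the lines and 0.0471 ± 0.0566 CPM in WT, and TraesCS2D01G021500 3.64 ± 3.47 CPM in the lines and 0.0406 ± 0.0484 CPM in WT. Close together on 2D, TraesCS2D01G029700, TraesCS2D01G029900 and TraesCS2D01G030000 rose by 2.96, 4.51 and 4.93 on the log2 scale (edgeR adjusted p = 0.00607, 0.00874 and 0.00759), each highest in C40.

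On 2D, a polyketide synthase and a hydrolase at a like position did not pass the test. TraesCS2D01G022700, the polyketide synthase, starts at 10310216, and TraesCS2D01G022400, the hydrolase, at 10219224. Both were named after their values were seen, and their relation to the 2A genes by sequence was not tested. The polyketide synthase had 2.07 to 16.9 CPM in the lines, against 1.68, 2.57 and 26.3 CPM in WT, a log2 fold change of -0.09 ± 0.71 (edgeR adjusted p = 0.940). The hydrolase had 2.62 to 9.96 CPM in the lines, against 2.39, 1.44 and 15 CPM in WT (log2 fold change 0.03 ± 0.63, edgeR adjusted p = 0.976). Both were highest in WT replicate 3, and the groups overlapped. Of the 5 tested polyketide synthase genes near this end of 2D, 2 fell, 0 rose and 3 did not pass. TraesCS2D01G027900, also named after its values were seen, averaged 5.36 ± 8.57 CPM in the lines and 46.6 ± 18.4 CPM in WT. Its log2 fold change was -4.17 ± 0.77 (edgeR adjusted p = 0.00652). For TraesCS2D01G034500 it was -3.42 ± 0.61 (edgeR adjusted p = 0.00561). The relation of these 2 genes to the 2A genes was not tested either.

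**Figure D4:**
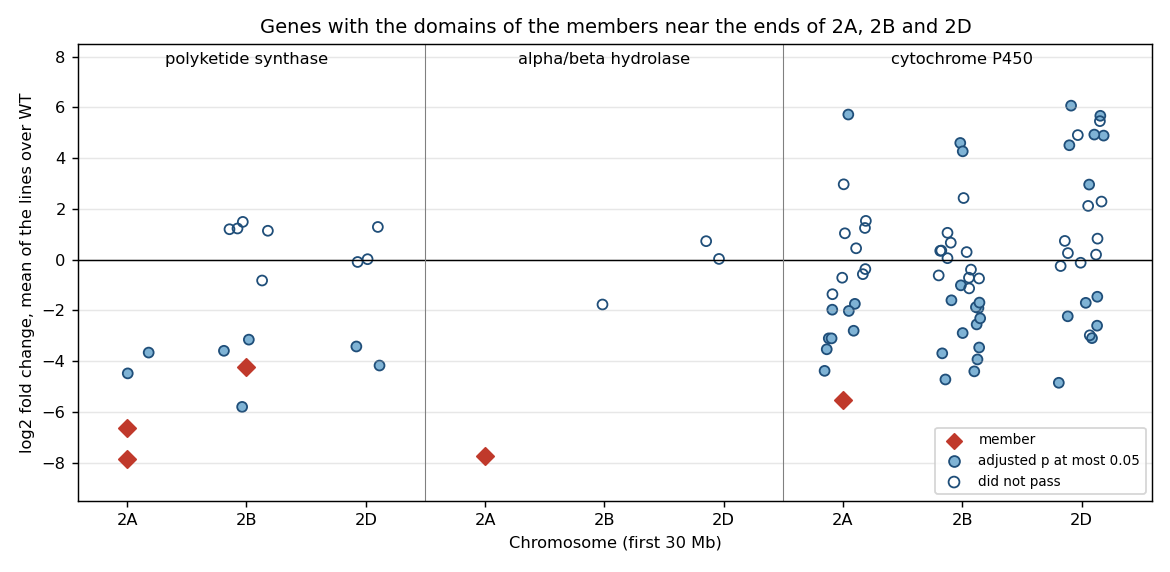
log2 fold change of the mean of the lines over WT for tested genes with the members' domains in the first 30 Mb of 2A, 2B and 2D (circles, filled where adjusted p is at most 0.05) and for the members (diamonds). Of the circles 34 are lower and filled, 27 of them cytochrome P450 genes, and on 2D 6 P450 genes rose.

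Over the whole genome, genes of the chalcone and stilbene synthase type were often lower in the mean of the lines. Of 90 besides the members, 42 were tested, of which 20 fell, 1 rose and 21 did not pass by edgeR, 47.6% against 11.7% of all genes that fell. The median log2 fold change was -1.82. By line, 17 fell in C40 and 13 in C22, where 8.80% and 8.56% of all genes fell. In C20, where 1.02% of all genes fell, 0 fell by edgeR, with 12 lower at an unadjusted p under 0.05. There DESeq2 called 9 and limma 1 or 2 by pseudocount, and the median log2 fold change in C20 was -1.36. The count in the mean of the lines was 9 without WT replicate 2 and 11 without WT replicate 3. In those fits 3.86% and 5.17% of all genes fell. Of the 42, 15 also belong to the 86 genes near the ends of group 2. TraesCS5B01G010500, which also carries the domain of ketoacyl-CoA synthases, averaged 12.6 ± 11.5 CPM in the lines and 126 ± 20.6 CPM in WT and fell by 3.68 ± 0.54 on the log2 scale (edgeR adjusted p = 0.00266). TraesCS2B01G048400 averaged 3.36 ± 5.02 CPM in the lines and 26.5 ± 16.5 CPM in WT. TraesCS2D01G034500 averaged 0.586 ± 0.593 CPM in the lines and 5.17 ± 3.14 CPM in WT, and TraesCS4A01G292500 0.616 ± 0.408 CPM in the lines and 2.44 ± 1.40 CPM in WT. The gene that rose was TraesCS5D01G488700, with 3.81 ± 3.0 CPM in the lines and 0.0533 ± 0.0649 CPM in WT.

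Genes on a list with domains found in wax and very-long-chain lipid enzymes were also lower more often than higher. The list took each description naming FAE1/Type III polyketide synthase-like, Male sterility protein, WAX2 C-terminal, Fatty acid hydroxylase superfamily, GNS1/SUR4, Wax ester synthase or Very-long-chain. A role in wax synthesis was not shown for each gene on it. Of 322 listed genes, 220 were tested, of which 75 fell, 21 rose and 124 did not pass by edgeR, 34.1% against 11.7% of all genes that fell, with a median log2 fold change of -0.45. The list shares 4 tested genes with the previous one. The ketoacyl-CoA synthase type genes TraesCS4A01G065300 and TraesCS4D01G242200, whose enzymes lengthen very long acyl chains, averaged 25.1 ± 8.81 and 28.6 ± 17.8 CPM in the lines, against 112 ± 33.8 and 133 ± 37.6 CPM in WT. TraesCS1A01G150800, of the WAX2 type that acts in alkane formation, averaged 5.77 ± 7.73 CPM in the lines and 42.9 ± 6.86 CPM in WT. An acyl-CoA reductase type locus with no reference identifier, on 1A from 8041058 to 8045258, whose enzymes make fatty alcohols, averaged 0.233 ± 0.481 CPM in the lines and 7.75 ± 1.01 CPM in WT, and the acyltransferase gene TraesCS2D01G002200 0.0635 ± 0.0927 CPM in the lines and 3.56 ± 0.87 CPM in WT. Ketoacyl-CoA synthase type genes also rose, such as TraesCS6B01G207000, at 28.3 ± 8.10 CPM in the lines and 11.6 ± 1.61 CPM in WT, and TraesCS7D01G350500, at 8.42 ± 2.37 CPM in the lines and 2.36 ± 1.46 CPM in WT. TraesCS6A01G177700 rose by 0.97 ± 0.20 on the log2 scale (edgeR adjusted p = 0.0101). TraesCS5B01G309800 had 0 counts in WT and 175 in the lines, at least 20-fold higher by the same floor. The reductase type gene TraesCS7A01G278500 averaged 3.44 ± 2.31 CPM in the lines and 0.171 ± 0.0932 CPM in WT. Of these, TraesCS7D01G350500 did not pass without WT replicate 2 (adjusted p = 0.0586 in edgeR), TraesCS6A01G177700 not without WT replicate 1 or 2 (0.0559 and 0.0630), and TraesCS7A01G278500 not without WT replicate 1, 2 or 3 (0.0705, 0.0728 and 0.0812). The core histone and photosynthesis sums given above also differ between the lines and WT, and their part in these list counts was not tested.

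Across the genome, 5 genes followed the mean profile of the members most closely over the 12 libraries, among 46172 genes with at least 2 CPM on average in WT. Likeness was Pearson's r of log2 CPM with the mean of the scaled member profiles, whose median over all these genes was 0.203, and 80 genes reached 0.95. The closest was TraesCS4A01G304000, of the transferase family (r = 0.984), with 0.0475 ± 0.0788 CPM in the lines and 2.10 ± 0.35 CPM in WT. Next were TraesCS1B01G147700, an ABC-2 type transporter (0.983), with 31.1 ± 7.72 CPM in the lines and 98.2 ± 4.42 CPM in WT, and TraesCS3D01G077400, a cytochrome P450 (0.979), with 0.134 ± 0.220 CPM in the lines and 25.5 ± 6.60 CPM in WT. TraesCS3A01G184000, an aconitase, and TraesCS2D01G082000, a phospholipase C (both 0.978), averaged 15.7 ± 3.58 and 17.9 ± 3.54 CPM in the lines, against 31.7 ± 1.65 and 32.7 ± 3.62 CPM in WT. The likeness follows the scaled shape and not the size of the difference, since the members' profile is mainly a step between the lines and WT.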

How the data were processed

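RNA sequencing of 12 libraries was analysed, 3 each of C20, C22, C40 and WT. The deposited table holds raw counts, for which the submitters' processing notes name featureCounts 1.5.0-p3, and the FPKM values of the authors. The deposited gene length in bases stands beside them. No source used here states the aligner, genome build, annotation or strand setting, so overlapping genes and near-identical homoeologs that share reads are uncertain. Dividing counts by length reproduced each library's FPKM up to 1 scaling constant (largest relative deviation 2.7e-08), which was 0.797 to 1.35 times the one its total would give.

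The fit used edgeR 4.0.16 (R 4.3.3). Genes were filtered with filterByExpr, which left 75788, scaled by TMM and fitted with 4 group means by quasi-likelihood, and p-values were adjusted (Benjamini-Hochberg) over all tested genes, with a threshold of 0.05. Standard errors were derived from the fold change and its F statistic. Across genes the biological coefficient of variation had a median of 0.321. The members, lists, windows and the libraries C20 replicate 3 and C40 replicate 1 left out together were chosen with earlier results of these data known. Besides the members, the text names up to 5 genes each way by adjusted p from each list, and the 5 most alike in profile. Replicates of a group differed beyond sampling noise (chi-square per gene 7.19 to 182). Alternatives were RLE scaling, DESeq2 1.42.0, other filters, a replicate block, limma 3.58.1 on log2(FPKM + 0.1) and log2(FPKM + 1), each line fitted with WT alone, other windows and leaving out libraries. The edgeR, limma and DESeq2 fits were also run on simulated counts with known falls. The outcome is not reported here and lends no weight to the results.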

Additional observations from a re-analysis of the deposited data

Results flagged for a closer look

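Among the 5 genes and the others named, 7 had effects against WT that differed between C20, C22 and C40 by edgeR's F test between the lines. Of all tested genes 2.49% passed that test. Most of the named genes were picked by their difference from WT, so the count is only a list of values to check. For the 2B polyketide synthase TraesCS2B01G019200 the log2 fold change was -1.52 in C20, -6.11 in C22 and -5.01 in C40 (adjusted p = 0.0230). TraesCS2A01G035400, the dehydrogenase gene beside TraesCS2A01G035300, had -0.44, -1.58 and -2.26 in C20, C22 and C40 (edgeR adjusted p = 0.0167). TraesCS2A01G037200, within 500 kb of the same gene, had -0.55, -1.34 and -1.94 (edgeR adjusted p = 0.0442). Both lie in the stretch of 2A that was low in C40. From the wax list, TraesCS4D01G242200 and TraesCS1A01G150800 had -1.42, -2.71 and -3.09, and -1.79, -3.35 and -5.93 (edgeR adjusted p = 0.0329 and 0.0341). The 2D cytochrome P450 genes TraesCS2D01G021500 and TraesCS2D01G029700 had 3.85, 5.71 and 7.46, and 1.99, 2.46 and 4.41 (edgeR adjusted p = 0.0498 and 0.0499).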

How the results depend on the processing

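The 5 genes were chosen for being lower in the lines, so that they stayed past the threshold under the 20 alternatives shows no stability. Their log2 fold change ranged from -4.99 to -3.61 for TraesCS2B01G019200, -5.81 to -2.36 for TraesCS2A01G022800, -7.63 to -2.18 for TraesCS2A01G035300, -9.67 to -2.23 for TraesCS2A01G021900 and -9.74 to -1.66 for TraesCS2A01G021800. The number lower in C20, 1 of 5, was 3 with either limma fit and with C20 replicate 3 and C40 replicate 1 both left out, 0 with C20 fitted with WT alone, and 0 to 3 leaving out 1 library. In C22 and in C40 it was 3 to 5 leaving out 1 library and 5 otherwise. The number differing between the lines, 1, was 2 with DESeq2, 0 with limma on log2(FPKM + 1) and 0 to 3 leaving out 1 library. Over all genes, 1890 in the main fit, it was 8480, 3003 and 293 to 7390 in the same order. For C40 against the mean of C20 and C22 the number of the 5 genes that passed was 1 with DESeq2 and 0 to 1 leaving out 1 library. For C22 against C20 it was 0 with limma on log2(FPKM + 1) and 0 to 2 leaving out 1 library. For C40 against C20 it was 2 with DESeq2, 1 with C20 replicate 3 and C40 replicate 1 both left out, and 0 to 3 leaving out 1 library, and for C40 against C22 0 to 1. The neighbours that fell numbered 29 in a window of 1 Mb and 10 to 21 leaving out 1 library, the same-domain genes 20 to 41, the chalcone and stilbene synthase type genes 9 to 23 and the genes on the wax list 57 to 84. With C20 replicate 3 and C40 replicate 1 both left out, the first 3 of these numbered 24, 44 and 26. Of all genes, 3.86% to 17.0% fell leaving out 1 library, and 20.7% with both of those left out. The 2A genes from 10 to 20 Mb lower in C40 numbered 61 with DESeq2 and 2 to 47 leaving out 1 library. The difference of TraesCS2A01G022800 between C22 and C20, -0.08 on the log2 scale, changed sign with limma on log2(FPKM + 0.1) (0.12), without C20 replicate 1 (0.62), C20 replicate 3 (0.07) or C22 replicate 1 (0.04), and with C20 replicate 3 and C40 replicate 1 both left out (0.08), and was -0.67 without C20 replicate 2. The cause of these changes was not tested.

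Equal replicate numbers do not pair the libraries: for 18 pairs that share one, deviations from the group means had r from -0.513 to 0.461, with 8 above 0.1, and in 4 of 12 libraries the best match had the same number. With the replicate block 0 of the 5 genes differed between the lines (adjusted p = 0.0742 for TraesCS2B01G019200 in edgeR) and 0 between C22 and C20 (0.0859). Over all genes 656 differed between the lines in that fit. Depth limits the 3 genes on 2A with at most 3 counts in each of C22 and C40: a floor of 3 counts over a group is 0.0286 to 0.0359 CPM in the lines.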

Other observations

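A second set of polyketide synthase genes near the end of 2B was highest in a single C40 library. TraesCS2B01G006300 and TraesCS2B01G006700 had 44.6 and 18.2 CPM in C40 replicate 1, 5.46 and 2.42 CPM in C40 replicate 2 and 6.02 and 2.48 CPM in C40 replicate 3, against 0.632 to 6 and 0.357 to 3.39 CPM in WT. The 2D genes TraesCS2D01G015700 and TraesCS2D01G016200 had 16.5 and 12.2 CPM in C40 replicate 1, 1.86 to 3.76 and 0.341 to 0.491 CPM in the other C40 libraries, and 0.220 to 1.58 and 0.550 to 2.45 CPM in WT. The hydrolase genes near them, TraesCS2B01G007100 and TraesCS2D01G015900, were also highest in C40 replicate 1, at 1.91 and 7.23 CPM, against 0.240 to 0.911 and 0.137 to 0.848 CPM in WT. These genes were named after their values were seen, and they did not pass in the mean of the lines against WT (edgeR adjusted p from 0.231 to 0.993).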
